A study of Mus musculus with 6 samples.

Results

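Hedgehog pathway genes were described across cultured fibroblasts from the mouse heart and tail. The genes were the ligands Shh, Ihh and Dhh, the receptor Ptch1, the ligand-binding antagonist Hhip, the transducer Smo and the transcription factors Gli1, Gli2 and Gli3. They were chosen by name, and their probes were found through the RefSeq accession that the array gives each probe. All 9 genes were found among the 20676 named genes on the array, on 11 of its 55681 probes, with 2 probes each for Smo and Hhip.

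Total RNA was labelled with Cy3 and hybridised to 1-colour Agilent arrays, 1 array per culture. The mice were male, of the strain C57/Bl6-J and 8 weeks old (8 to 10 weeks in the protocol), and no altered allele or drug is named for either tissue. Hearts were chopped and tails were skinned and cut, both were digested with trypsin or collagenase, and the plated cells were kept for 5 days in a serum-containing medium. There were 3 cultures labelled heart fibroblast and 3 labelled tail fibroblast, given as biological replicates pooled from 2 animals, and the series title places the question in cardiogenic genes of cardiac fibroblasts. No sort of the plated cells is named. In such bulk cultures fewer cells of a type and less RNA per cell cannot be told apart.

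In Hedgehog signalling a secreted ligand binds Ptch1, which otherwise keeps Smo inactive. Active Smo moves into the primary cilium and switches the Gli proteins from repressors of transcription to activators, Gli2 acting mainly as an activator, Gli3 mainly as a repressor and Gli1 as an activator that is itself induced. Ptch1, Gli1 and Hhip are widely used as readouts of the pathway, since their transcription rises when it is active, and mesenchymal cells are common recipients of ligands that epithelia release.

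Levels are given as log2 of the processed signal minus the 75th percentile of the array's probes, so 0 is the level of a probe at that percentile. Levels of different probes cannot be set against each other, because probes differ in how strongly they bind. A signal is called well above background where the scanner software marked it so. The lowest such signals lay between -5.03 and -3.79 on 5 arrays and at -6.00 on heart 2.

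In values other than those of the Hedgehog genes, heart 2 stood apart in its signals, and heart 2 and tail 1 went against their labels at marker genes. On heart 2, 99.3% of spots were well above background, against 47.3% to 55.2% on the other 5 arrays, and its correlations with them over all probes were 0.743 to 0.764 where all other pairs had 0.958 to 0.989. Tcf21, a transcription factor of cardiac fibroblasts, was at 5.37 and 5.28 on heart 1 and 3, at -5.45 and -5.64 on tail 2 and 3, and at 5.44 on tail 1. Hoxb13, a homeobox gene of the tail end of the body, was at -6.97 on tail 1, beside -7.04 and -5.44 on heart 1 and 3. The library labelled tail 1 thus went against its label at both genes, as heart 2 did with Tcf21 at -2.38 and Hoxb13 at 4.44. All 9 fibroblast markers, among them Col1a1 and Pdgfra, were well above background on every array. Each result is therefore given for all 6 arrays by label and for 4 arrays (heart 1 and 3 against tail 2 and 3). Since tail 1 was left out for its outcome, p-values on 4 arrays are too small by an unknown amount.

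On 4 arrays the pathway's readout genes were higher in tail: Hhip at least 22.4-fold, Gli1 at least 4.26-fold and Ptch1 at least 3.26-fold, together with Gli2 at 2.4-fold. Here "at least" sets undetected heart signals at a limit defined below, and is no strict lower bound. With normexp background correction, which compresses low signals, the log2 differences of heart minus tail were smaller, at -3.01, -1.0 and -0.86 for Hhip, Gli1 and Ptch1. Smo and Gli3 were strongly detected in both tissues and did not pass the test. No ligand passed either, and only Dhh was well above background in both tissues. By label, on 6 arrays, no Hedgehog gene passed. Of the 9 genes, 7 were tested on 4 arrays and 4 were called by limma (adjusted p under 0.05), all higher in tail, where 14.4% of all 20570 features were called, 6.63% higher in tail and 7.75% higher in heart. The share of all features called on 4 arrays was 1.93% with no filter on low values and 11.6% with signal required on every array. It was 18.6% without heart 1, 14.1% without heart 3, 8.98% without tail 2 and 7.12% without tail 3. Ptch1, Gli1 and Hhip entered that test only through their tail arrays, so a difference was built into their selection, while Gli2, Dhh, Smo and Gli3 were well above background on all 4 arrays. On 6 arrays 5 of the 9 genes were tested and limma called 0, with 0 at an unadjusted p under 0.05, and 0% of 20204 features were called (442 at an unadjusted p under 0.05).

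**Figure D1:**
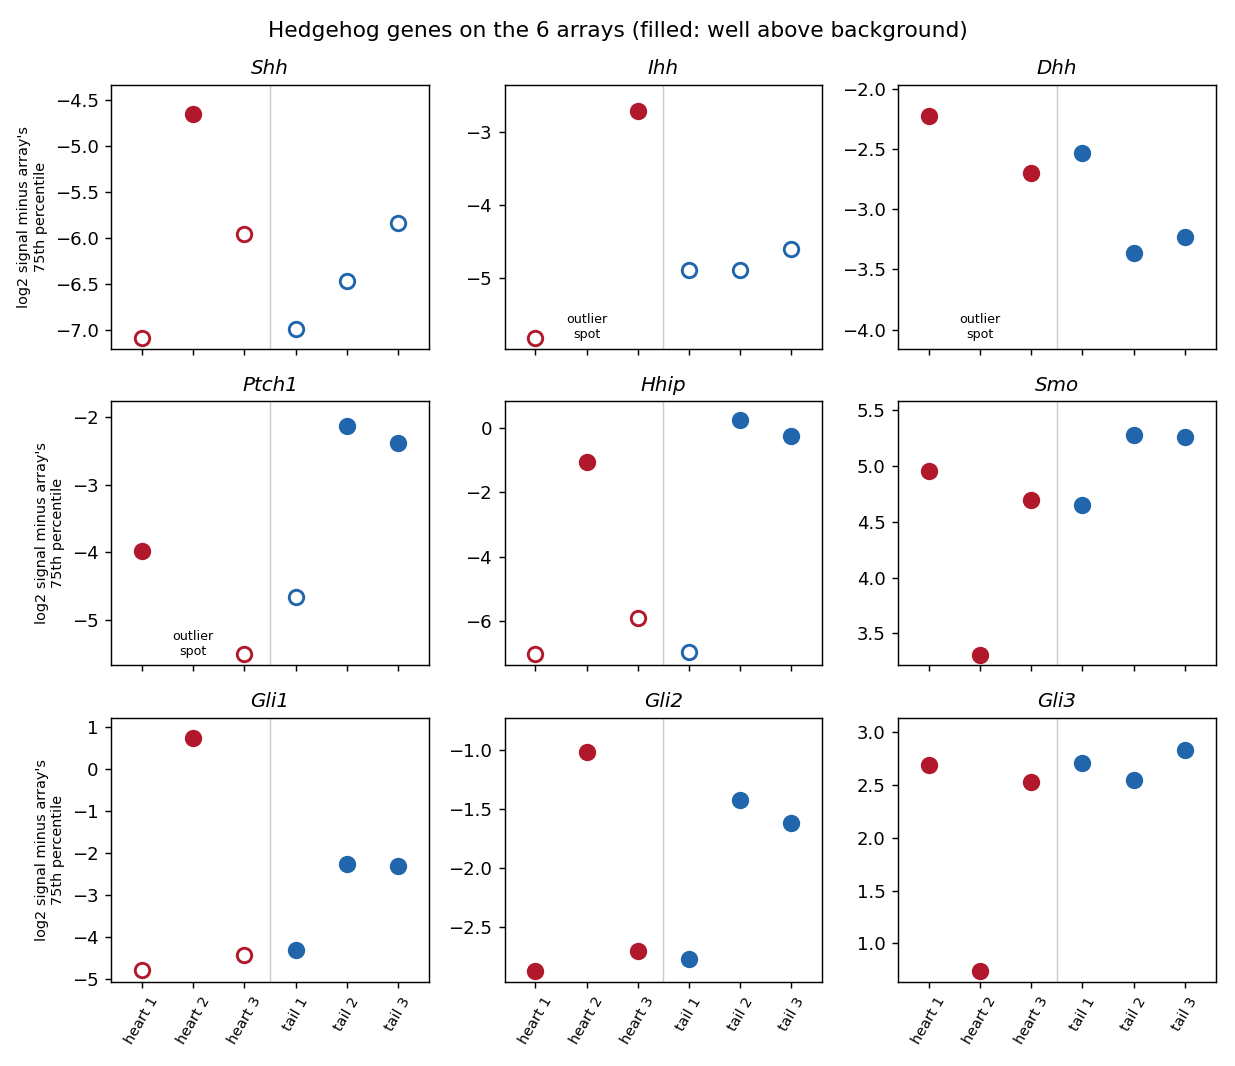
Level of each Hedgehog gene on each array, as log2 of the processed signal minus the array's 75th percentile. Filled points were well above background, open points were not, and spots marked as outliers are absent. Hhip, Gli1, Gli2 and Ptch1 lie higher on tail 2 and 3 than on heart 1 and 3, and tail 1 lies beside heart 1 and 3.

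The ligands Shh and Ihh were not well above background on most arrays. Shh, the ligand of limb and gut patterning, was at -7.09, -4.66 and -5.96 on heart 1, 2 and 3 and at -6.99, -6.47 and -5.84 on tail 1, 2 and 3. Only the signal on heart 2 was well above background, so the other 5 arrays give no order for Shh. Ihh, the ligand of growing cartilage, was at -5.81 and -2.71 on heart 1 and 3 and at -4.88, -4.88 and -4.60 on tail 1, 2 and 3. Its signal was well above background on heart 3 alone, and its spot on heart 2 was marked as an outlier and left out. Neither gene passed the filter on low values. With no filter, limma gave differences of heart minus tail on 4 arrays of -0.37 for Shh and 0.47 for Ihh, with adjusted p of 0.729 and 0.848. Ihh passed both filter and test only where heart 1 was left out, which sets the single array heart 3 against tail (difference 2.03, adjusted p = 0.0176).

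Dhh, the ligand that Schwann cells use to signal to the nerve sheath, was the ligand well above background on all 5 arrays that measured it. Its levels were -2.22 and -2.70 on heart 1 and 3, and -2.53, -3.36 and -3.23 on tail 1, 2 and 3, while its spot on heart 2 was marked as an outlier. Heart 1 and 3 were both above tail 2 and 3, and tail 1 fell between the heart arrays. The difference on 4 arrays was 0.83 (SE 0.22, 95% interval 0.26 to 1.41), and it did not pass (limma adjusted p = 0.0792). It passed without heart 3, at 1.07 (adjusted p = 0.0435). By label, on the 5 arrays that measured it, the difference was 0.58 (SE 0.51, adjusted p = 0.714). Of 6 Schwann cell markers, Erbb3 was not well above background on any array but heart 2. Their summed level was taken as linear signal over the array's 75th percentile. It was 1.66 and 5.15 on heart 1 and 3 and 2.58 and 3.2 on tail 2 and 3, so the groups overlapped. That sum joined opposed genes: of 3 markers tested on 4 arrays, 1 was called higher in heart and 1 higher in tail. Ngfr was at 0.02 and 2.15 on heart 1 and 3 and at -3.08 and -2.89 on tail 2 and 3. S100b was at -1.66 and -1.32 on heart 1 and 3 and at 1.05 and 1.47 on tail 2 and 3.

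Ptch1, the receptor, was at -3.98 and -5.50 on heart 1 and 3 and at -4.66, -2.14 and -2.38 on tail 1, 2 and 3, with the spot on heart 2 marked as an outlier. It was well above background on heart 1, tail 2 and tail 3 only. Tail 2 and 3 were above both heart arrays, and tail 1 lay between the heart arrays. Ptch1 was at least 3.26-fold higher in tail on 4 arrays with heart 3 set at its detection limit, and 5.59-fold with the undetected signal of heart 3 as read. The fitted difference of heart minus tail, which takes that signal as read, was -2.48 (SE 0.53), at the edge of the threshold (limma adjusted p = 0.0493). The call was lost with quantile normalization (adjusted p = 0.0749), with no filter (0.218), without tail 2 (0.146) and without tail 3 (0.0975). With normexp background correction, which compresses low signals, the difference was -0.86 (adjusted p = 0.0157). By label Ptch1 was not tested, since neither group had it well above background on all arrays, and with no filter the difference on 5 arrays was -1.68 (SE 1.03, adjusted p = 0.734).

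Hhip, a membrane protein that binds and sequesters the ligands, had the largest difference of the 9 genes on 4 arrays. Its brighter probe was at -7.00, -1.05 and -5.89 on heart 1, 2 and 3 and at -6.94, 0.25 and -0.25 on tail 1, 2 and 3. Heart 1, heart 3 and tail 1 were not well above background, while tail 2 and 3 were far above it and heart 2 came next to them. Against the detection limit Hhip was at least 22.4-fold higher in tail on 4 arrays, and the fitted difference of heart minus tail was -6.45 (SE 0.43, limma adjusted p = 0.00231). With normexp the difference was -3.01 (adjusted p = 0.000361). The second Hhip probe was at -7.01, -3.44 and -5.93 on heart 1, 2 and 3 and at -6.93, -3.74 and -4.53 on tail 1, 2 and 3, and its difference on 4 arrays was -2.33. That probe was well above background on heart 2 and tail 2 only, so its difference rests mostly on undetected signals and its size cannot be set against that of the brighter probe. By label Hhip was not tested, and with no filter its difference was -2.33 (SE 2.36, adjusted p = 0.734).

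Smo, the membrane protein that passes the signal on, was detected on every array by both its probes. The brighter probe was at 4.95, 3.31 and 4.69 on heart 1, 2 and 3 and at 4.65, 5.28 and 5.26 on tail 1, 2 and 3. Heart 1 and 3 were below tail 2 and 3, and tail 1 was lower than both. The difference on 4 arrays was -0.45 (SE 0.17, 95% interval -0.89 to -0.01) and did not pass (limma adjusted p = 0.169). The other probe gave -0.54 on 4 arrays. By label the difference was -0.74 (SE 0.54, 95% interval -1.99 to 0.51, adjusted p = 0.714).

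Gli1, the induced activator, was at -4.79, 0.75 and -4.43 on heart 1, 2 and 3 and at -4.31, -2.25 and -2.30 on tail 1, 2 and 3. Heart 1 and 3 were not well above background and the 3 tail arrays were, while tail 1 stood next to heart 3 and heart 2 was the highest of all. On 4 arrays Gli1 was at least 4.26-fold higher in tail (heart minus tail -2.33, SE 0.18, limma adjusted p = 0.00344). With normexp the difference was -1.0 (adjusted p = 0.0125). By label the difference was 0.13, with a 95% interval from -3.11 to 3.37 (adjusted p = 0.966). Without heart 2 alone it was -1.65 (SE 0.70, adjusted p = 0.697) and without tail 1 alone -0.55 (adjusted p = 0.886).

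Gli2, the main activator, was well above background on all 6 arrays. It was at -2.87, -1.02 and -2.70 on heart 1, 2 and 3 and at -2.77, -1.42 and -1.62 on tail 1, 2 and 3. Heart 1, heart 3 and tail 1 lay within a narrow band, below tail 2 and 3, and heart 2 was the highest. On 4 arrays Gli2 was 2.4-fold higher in tail (heart minus tail -1.26, SE 0.16, 95% interval -1.70 to -0.83, limma adjusted p = 0.0127). The call was lost with no filter (adjusted p = 0.119), without tail 2 (0.124) and without tail 3 (0.0827), and normexp gave -0.74 (adjusted p = 0.0352). By label the difference was -0.26 (SE 0.64, adjusted p = 0.837).

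Gli3, the main repressor, was at 2.69, 0.74 and 2.53 on heart 1, 2 and 3 and at 2.71, 2.55 and 2.83 on tail 1, 2 and 3. All arrays but heart 2 lay close together, and the heart and tail values overlapped. The difference on 4 arrays was -0.08 with a 95% interval from -0.55 to 0.38 (limma adjusted p = 0.784). By label it was -0.71 (SE 0.58, adjusted p = 0.714).

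**Figure D2:**
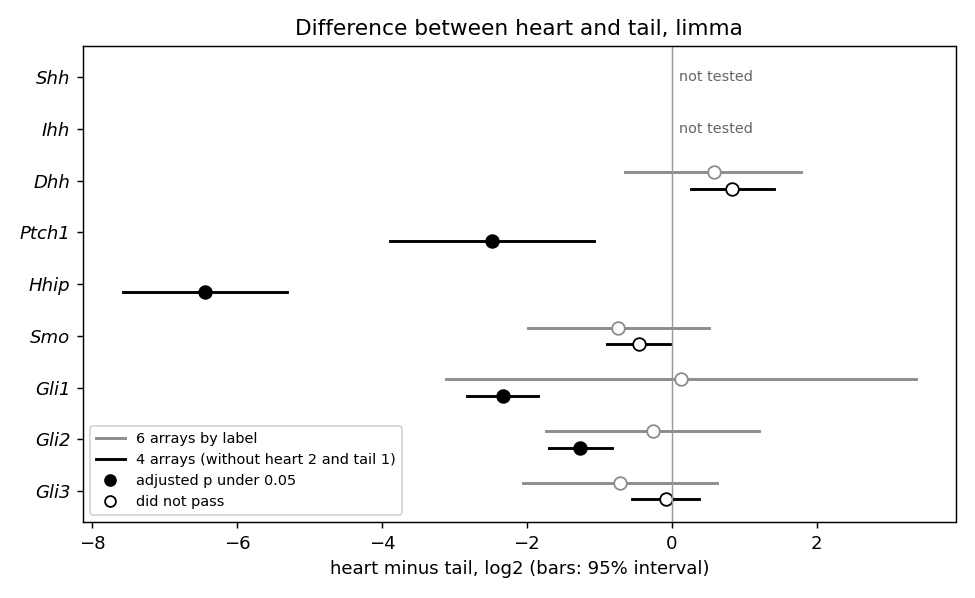
Difference of heart minus tail for each Hedgehog gene on a log2 axis, with 95% intervals from limma, for 6 arrays by label (grey) and 4 arrays (black). Filled points passed an adjusted p under 0.05. Hhip, Ptch1, Gli1 and Gli2 passed on 4 arrays, and the Gli1 interval by label runs from -3.11 to 3.37.

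The 4 arrays lie in pairs on the rows of 1 slide, which allowed the difference within each row. Heart 1 minus tail 2 in the first row and heart 3 minus tail 3 in the second were -7.25 and -5.64 for Hhip, -2.53 and -2.13 for Gli1, -1.84 and -3.12 for Ptch1, and -1.45 and -1.08 for Gli2. The direction was the same in both rows for each of these genes. They were picked by the test on these same 4 arrays, so the row differences and the row block below are no separate support. Hhip and Gli1 on heart 1 and 3, and Ptch1 on heart 3, were not well above background, so the sizes of these differences rest partly on undetected signals. At all 4 called genes tail 1 was nearer to heart 1 and 3 than to tail 2 and 3. With a block term for the row, limma again called these 4 (adjusted p = 0.000143 for Hhip, 0.00124 for Gli1, 0.00409 for Ptch1 and 0.0173 for Gli2). That fit called 2925 of all 20570 features (14.2%).

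Promoter sequences are shown for the called genes with an entry, since these genes were higher in tail together. RefSeq on build GRCm38.p6 gave a promoter for 7 of the 9 genes, from 250 bases before to 50 after the annotated start. Gli proteins are known to bind TGGGTGGTC, so these letters and the inner GGGTGG were searched on both strands, any TGGGTGGTC also counting as GGGTGG. Capitals mark GGGTGG or its reverse complement CCACCC. Ptch1 lies on the minus strand at chr13:63565686-63565985, Hhip on the minus strand at chr8:80057959-80058258 and Gli2 on the minus strand at chr1:119053570-119053869.
Ptch1: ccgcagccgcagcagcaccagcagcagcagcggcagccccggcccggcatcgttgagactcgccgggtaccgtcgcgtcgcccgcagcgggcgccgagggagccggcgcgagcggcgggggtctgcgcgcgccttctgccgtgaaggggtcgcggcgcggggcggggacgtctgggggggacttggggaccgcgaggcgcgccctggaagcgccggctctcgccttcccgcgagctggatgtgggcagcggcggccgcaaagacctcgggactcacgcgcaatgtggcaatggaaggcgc
Hhip: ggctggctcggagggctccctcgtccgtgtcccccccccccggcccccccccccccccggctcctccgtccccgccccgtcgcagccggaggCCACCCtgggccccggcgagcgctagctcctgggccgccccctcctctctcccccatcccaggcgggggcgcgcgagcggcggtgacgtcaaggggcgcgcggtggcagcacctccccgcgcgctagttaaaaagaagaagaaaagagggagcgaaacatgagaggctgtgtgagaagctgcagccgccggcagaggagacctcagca
Gli2: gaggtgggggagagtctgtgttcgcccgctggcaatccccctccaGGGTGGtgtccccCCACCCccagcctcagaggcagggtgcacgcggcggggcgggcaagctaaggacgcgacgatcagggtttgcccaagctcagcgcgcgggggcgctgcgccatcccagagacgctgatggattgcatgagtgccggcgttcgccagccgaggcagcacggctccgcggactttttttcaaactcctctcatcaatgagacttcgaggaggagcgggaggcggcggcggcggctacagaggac

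No member promoter held TGGGTGGTC, which 0.253% of all 32851 promoters did. The shorter GGGTGG stood in 6 of the 7 promoters and in 31.5% of all. It was absent from the Ptch1 window, occurred in those of the called genes Hhip and Gli2, and also in those of Smo and Gli3, which were not called. Rich in G and C, the promoters of Ptch1, Hhip and Gli2 had GC contents of 76.3%, 73.7% and 67.3%, against a median of 52.7% over all promoters. They held 47, 30 and 28 CG dinucleotides, where the median promoter held 7. A match is a description of the letters, and the arrays do not measure binding.

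A further 62 genes of the pathway, in 5 lists by role, were compared in the same fits. On 4 arrays 56 were tested, of which 4 were higher in heart, 12 were higher in tail and 40 did not pass. Their median difference was -0.29, beside -0.07 over all features tested. By label limma called 0 of the 52 tested, with 4 at an unadjusted p under 0.05. The authors' deposited table, which lists 433 probes where the array has 55681, holds 0 probes of the 9 Hedgehog genes. With so small a share listed, that absence says nothing about these genes.

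Among 6 genes of ligand processing and release, 5 were tested, 2 were higher in tail and the median difference was 0.24. Hhat, the enzyme that attaches palmitate to the ligands, was at 0.96, 0.01 and 1.27 on heart 1, 2 and 3 and at 1.20, 2.12 and 2.18 on tail 1, 2 and 3, which made it 2.05-fold higher in tail on 4 arrays (limma adjusted p = 0.0267). Scube2, a secreted protein that helps release lipid-bearing ligand, was at -1.99, -2.20 and -1.54 on heart and at -1.53, -0.09 and -0.19 on tail, in the same array order. By this brighter probe it was 3.07-fold higher in tail on 4 arrays (adjusted p = 0.0121). A dimmer Scube2 probe, well above background on all 6 arrays, differed less, at -2.81 and -2.93 on heart 1 and 3 and at -2.71 and -2.17 on tail 2 and 3. With the mean of its probes the difference was -1.02 (limma adjusted p = 0.0234), against -1.62. Both calls were lost with no filter (adjusted p = 0.186 for Hhat and 0.102 for Scube2). Both were also lost without tail 2 (0.177 and 0.0786) and without tail 3 (0.209 and 0.0616).

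Among co-receptors and other ligand-binding proteins, 2 genes were higher in tail on 4 arrays. Lrp2, an endocytic receptor that can bind Shh, was at -6.39, -1.77 and -6.08 on heart 1, 2 and 3 and at -7.13, -1.91 and -2.52 on tail 1, 2 and 3. It was at least 4.84-fold higher in tail on 4 arrays (limma adjusted p = 0.00233). Gpc3, a glypican that competes with Ptch1 for ligand, was at 0.86, 0.78 and 1.06 on heart and at 1.09, 3.31 and 2.69 on tail, and was 4.11-fold higher in tail (adjusted p = 0.0119). Its call was lost without heart 1 (adjusted p = 0.0507), without heart 3 (0.0547) and with no filter (0.094). The ligand-binding co-receptors proper did not pass: the differences were -0.50 for Boc (adjusted p = 0.0966), -0.22 for Cdon (0.412) and 0.15 for Gas1 (0.832).

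The machinery between Smo and the Gli proteins gave no call. Of 22 such genes, among them the Gli-binding inhibitor Sufu and the ciliary kinesin Kif7, 21 were tested on 4 arrays and limma called 0. At an unadjusted p under 0.05 there were 7 (33.3%), beside 28.7% of all features. Ulk3, a kinase that acts on Gli proteins, had a difference of -0.67 (adjusted p = 0.0662) and was called with an intensity trend (0.038), with normexp (0.0392) and without heart 1 (0.0422). It was named after its values were seen. The list's differences ran from -0.67 to 0.88 with a median of -0.14. Of 10 genes of primary cilium transport, 1 was higher in tail, and the median was -0.24. It was Ift57, a subunit of the intraflagellar transport train, with a difference of -0.75 (adjusted p = 0.0428). That call was lost with median scaling (adjusted p = 0.0757), with the slide row as a block (0.0989), with no filter (0.27) and without any 1 of the 4 arrays (0.0615 to 0.386).

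Genes described as Gli targets in mesenchyme moved both ways. Of those given below, Grem1 and Pax9 entered the test only through their tail arrays and Mycn only through its heart arrays, so a difference was built into their selection, as for Lrp2. Of 18, 14 were tested on 4 arrays, 7 were higher in tail, 3 were higher in heart and the median difference was -1.10. Grem1, a secreted BMP antagonist, was at -7.21, -1.93 and -6.10 on heart 1, 2 and 3 and at -7.14, 0.25 and 0.80 on tail 1, 2 and 3. It was at least 32.3-fold higher in tail on 4 arrays (limma adjusted p = 0.00186).

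Pax1 and Pax9 are paired-box factors of the embryonic sclerotome, which forms the vertebrae. Pax9 was at -6.31, -1.59 and -6.04 on heart 1, 2 and 3 and at -7.06, -0.07 and -0.10 on tail 1, 2 and 3, at least 21.2-fold higher in tail on 4 arrays (limma adjusted p = 0.000621). Pax1 was at -2.99, -1.77 and -3.31 on heart and at -2.60, 0.68 and 1.09 on tail, 16.3-fold higher in tail (adjusted p = 0.00155). Mycn, a proliferation-linked transcription factor, went the other way, at 1.98, -3.98 and 0.23 on heart and -4.30 and -4.81 on tail 2 and 3, with 0.30 on tail 1. It was at least 35.4-fold higher in heart on 4 arrays (adjusted p = 0.0082), a call lost with no filter (adjusted p = 0.0669). At each of these 4 targets tail 1 lay nearer to heart 1 and 3 than to tail 2 and 3. With normexp, which compresses low signals, the calls held with differences of -3.82 for Grem1, -2.99 for Pax9, 3.48 for Mycn and, among the ligand-binding proteins, -1.29 for Lrp2 (adjusted p = 0.00024, 0.000194, 0.00729 and 0.00972).

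Markers of other cell types moved in both directions on 4 arrays. The summed levels of cartilage, mural and muscle markers were higher in tail, as were the 4 called Hedgehog genes, though not every marker was. Cartilage cells, which carry an active Hedgehog pathway in the growing skeleton, were checked with 6 chondrocyte markers. Their summed level was 0.552 and 0.577 on heart 1 and 3, 5.93 and 5.29 on tail 2 and 3, 0.513 on tail 1 and 4.11 on heart 2. All 6 were well above background on heart 2 and tail 2, 3 on heart 1, heart 3 and tail 3, and 4 on tail 1. Col10a1, the collagen of mature cartilage, was at least 51.1-fold higher in tail on 4 arrays and Col2a1, the main cartilage collagen, 8.77-fold (limma adjusted p = 0.00568 and 0.00266). Col10a1 entered the test only through its tail arrays. These were the 2 called of 4 tested, and the others had differences of -0.32 (Acan, adjusted p = 0.542) and 0.58 (Col9a1, adjusted p = 0.494). Snorc was not well above background on tail 3, heart 1, heart 3 or tail 1, and Matn1 was not on tail 3, heart 1 or heart 3. Sox9, on the list of described Gli targets and not among the 6 markers, went the other way (limma adjusted p = 0.00105). It was at 3.33 and 3.16 on heart 1 and 3 and at -0.39 and -0.37 on tail 2 and 3, and was named after its values were seen.

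Mural and smooth muscle markers had a summed level of 310 and 278 on heart 1 and 3, 875 and 723 on tail 2 and 3, 236 on tail 1 and 169 on heart 2. Of the 7 markers, 4 were higher in tail on 4 arrays, among them Cnn1 at 32.9-fold and Myh11 at least 8.83-fold with the undetected heart 3 at its detection limit, while Notch3 was 7.25-fold higher in heart, each by limma (adjusted p = 0.00117, 0.00125 and 0.00142). At least 6 of the 7 were well above background on every array. Skeletal muscle markers summed to 16.5 and 12.9 on heart 1 and 3, 46.3 and 39.6 on tail 2 and 3, 11.4 on tail 1 and 11.8 on heart 2, with Ckm and Pax7 not well above background on any array but heart 2. Of 6 such markers, 3 were tested and 2 were higher in tail. Keratinocyte markers summed to 6.66 and 6.98 on heart 1 and 3 and to 6.63 and 5.71 on tail 2 and 3, with Epcam and Cdh1 not well above background on any array but heart 2. Endothelial markers went the other way, with 5 of 7 higher in heart, 0 higher in tail and a median difference of 2.5. Their summed level overlapped, at 16.2 and 21.3 on heart 1 and 3 and 25.8 and 19.3 on tail 2 and 3. Of 6 macrophage and leukocyte markers, 3 were higher in heart and 0 in tail, with a median difference of 1.76, and summed levels of 45.7 and 86.0 on heart 1 and 3 and 72.5 and 54.4 on tail 2 and 3. On the 4 arrays most of the sum came from the brightest gene for mural (Acta2), skeletal muscle (Acta1), keratinocyte (Trp63) and endothelial (Kdr) markers. Those sums thus mostly follow that gene and not the whole list. Markers named with values were chosen after these were seen. Fibroblast markers were not alike in both groups either: of 9, 4 were higher in heart, 1 was higher in tail and 4 did not pass on 4 arrays. The part of any of these cell types in the Hhip, Gli1, Ptch1 and Gli2 differences was not tested.

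**Figure D3:**
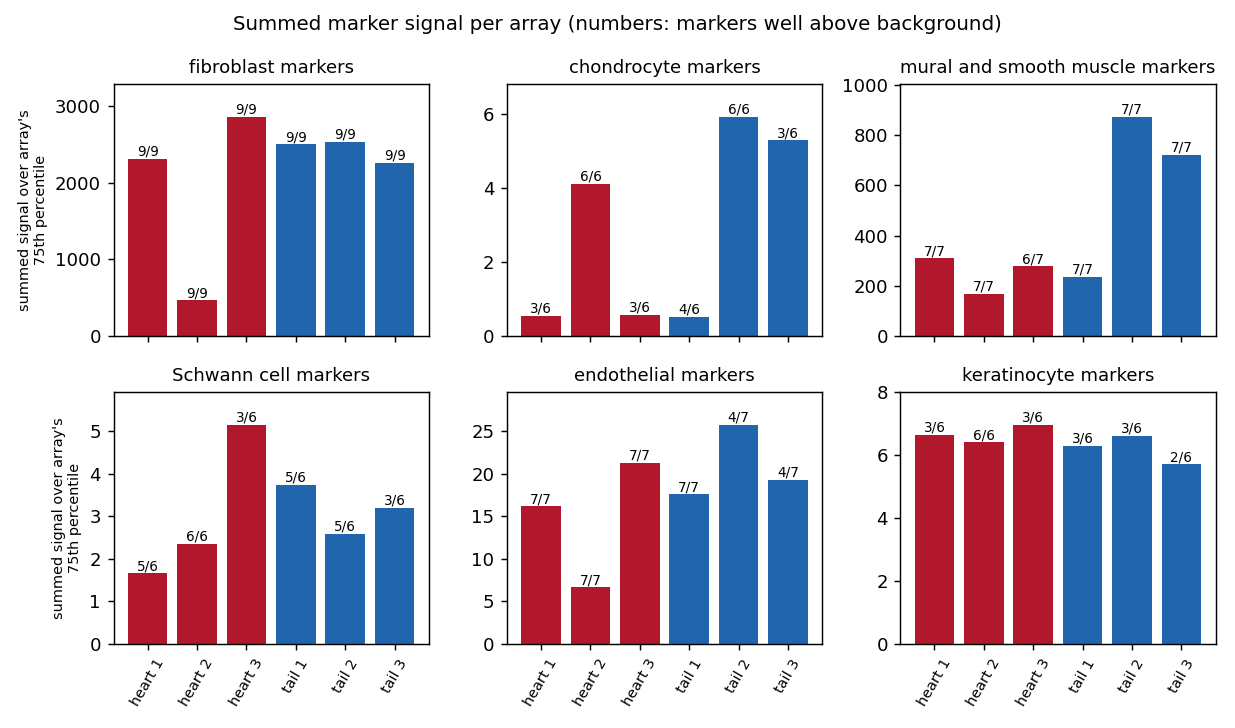
Summed level of the markers of fibroblasts, chondrocytes, mural and smooth muscle cells, Schwann cells, endothelial cells and keratinocytes on each array. The axis is linear (signal over the array's 75th percentile). Summed levels of chondrocyte and mural markers are higher on tail 2 and 3 than on heart 1, heart 3 and tail 1.

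The genes whose levels followed each called Hedgehog gene most closely were ranked by the root mean square distance of their centred log2 levels. Hhip was followed by Cbln1, Cyp2f2 and Gldn, at 0.25, 0.29 and 0.30, over 6 arrays. Gli1 was followed by Adgrb1, Itga2b and Klhdc8a, at 0.18, 0.18 and 0.20, over 6 arrays. For Gli2, Hnmt, Wfdc1 and 4933405E24Rik each lay at 0.08 over 6 arrays. Over the 5 arrays that measured Ptch1, 2900026A02Rik, Osr2 and Rerg lay at 0.16, 0.17 and 0.18. None of the 9 Hedgehog genes was among another's nearest 3. With 13293 candidates (13638 for Ptch1), such an absence says little about these genes. Osr2, a transcription factor of mesenchyme, was the only one of the 12 nearest genes on the list of described Gli targets.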

How the data were processed

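Per the file headers, the deposited files hold spot intensities from Agilent Feature Extraction 11.0.1.1, with the background subtracted and no scaling between arrays. Deposited flags of other kinds, 0 or 1 per spot, mark outliers and signals well above background. The authors' deposited table gives a log2 fold and a linear fold ratio for 433 probes. Its normalization is not stated in the sources read here.

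Outlier spots were dropped, spots of a probe averaged, and each array's 75th percentile (control spots left out) subtracted from its log2 values. A probe was kept if either group had it well above background throughout. A gene with several probes was represented by the brightest. The groups were compared with limma 3.58.1 in R 4.3.3 (two-sided, with Benjamini-Hochberg adjustment over every feature in the fit), and the code was tested on simulated data. Figures used matplotlib 3.10.9, and tables pandas 2.3.3 in Python 3.11.15. The number of arrays limits the precision. For a probe below background in the dimmer group, "at least" sets the brighter mean against the higher of its own dim signal and the lowest signal well above background on each dim array, also where only some dim arrays are below background. That limit differs between probes, so the fold is no strict bound: Gli1 on heart 1, at -4.79, was not well above background though the array's lowest such signal was -5.03.

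Members, lists and the 4-array comparison were chosen with earlier results of these data known. Named were the 9 members, up to 4 called genes per list with the largest differences, all co-receptors, and 3 nearest genes per called member. Some named items are not reported here. Normexp used median spot signals (offset 50). Shared animals between heart and tail are not given.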

Additional observations from a re-analysis of the deposited data

How the results depend on the processing

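On 4 arrays, 4 Hedgehog genes were called, and the count was 2 with no filter on dim probes, 1 with signal required on every array, where Gli1, Hhip and Ptch1 are no longer tested, and 2 to 5 leaving out 1 array. For the other pathway genes the count of 16 became 5 with no filter and 8 to 18 leaving out 1 array, and the authors' deposited table lists 1 of them. Gli1 and Hhip kept their calls in all 11 alternatives that tested them. These alternatives reuse the same 4 arrays or leave out 1 of them, so the kept calls are no separate support. Except with no filter, both genes entered only through their tail arrays. Gli3 on 4 arrays, at -0.08, ranged from -0.22 to 0.06 leaving out 1 array, turning without tail 3. By label, 0 members and 0 other pathway genes were called, against 4 and 16 without heart 2 and tail 1 together. The Gli1 difference by label turned from 0.13 to -0.80 with median scaling, and to -2.33 without heart 2 and tail 1. Leaving out 1 array it ranged from -1.65 (without heart 2) to 1.11 (without heart 1), with -0.55 without tail 1. Gli2 by label ranged from -0.85 without heart 2 to 0.07 without heart 1. Median scaling moved the median difference of all features by label from -0.40 to -1.33. Leaving out 1 of 4 arrays assumes that the lone array of a group varies like the other group. Beyond the fewer genes tested under the filter on every array, the cause of these changes was not tested.

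With the replicate number as a block, limma on 6 arrays called 0 members and 0 other pathway genes (37 of 20204 features in all, against 0 without it), and the Gli1 difference stayed at 0.13 (adjusted p = 0.951). Deviations of same-numbered heart and tail arrays correlated at 0.196, 0.261 and -0.331, and heart 2 correlated best with tail 3, so the numbers were not taken as pairs. No paired analysis was possible by replicate number for the 4 arrays because their groups share only the number 3. The fit with the slide row as a block called 4 members and 17 other pathway genes there, where 14.2% of all features were called.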
